A study of Mus musculus with 8 samples.

Results

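Stromal cells of the mouse organ of Corti were compared between postnatal day (P) 12 and the later ages P26 and P33, using single-cell RNA-seq libraries. A barcode was counted as a stromal cell when it had at least 500 detected genes, under 25% mitochondrial unique molecular identifiers (UMIs, tags that each mark 1 captured transcript), at least 3 summed UMIs of the collagen genes Col1a2 and Col3a1, and no UMI of Ptprc, Pecam1 or Epcam, which mark leukocytes, endothelium and epithelium. This rule found 2289 stromal cells among 6023 barcodes that passed the first pair of limits and 8061 barcodes in all. Of these, 1335 came from the 2 Coch P12 libraries (829 and 506 cells) and 954 from 6 later libraries, namely 3 of Coch + Tmx P26 with 247, 210 and 164 cells, 2 of Coch + Tmx P33 with 65 and 128 cells, and 1 of Coch P33 with 140 cells. All animals carried Fgfr3iCre+, Atoh1-HA+, Chrna9-GFP+ and a Cre-dependent tdTomato reporter in Rosa26. Tamoxifen (Tmx), which activates this Cre in Deiters' and pillar cells, was given, per the labels, at P12 and P13 to the animals of the 5 Coch + Tmx libraries and to none of the Coch P12 or Coch P33 animals. Age and tamoxifen therefore cannot be told apart in the P12 comparison. Only the single Coch P33 library was both later and untreated. Its value is named for genes described library by library. Elsewhere it is counted in the range given for the 6 later libraries. There it can be the lowest value, as for Bgn and Smoc1, or the highest, as for Mfap5. The lateral walls were removed during dissection. The labels do not say how many animals went into a library, so that p-values measure only the spread between these libraries, which may be technical.

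As background, cochlear stroma is made of mesenchymal cells that surround the sensory epithelium: fibrocytes of the spiral limbus and the spiral ligament, cells of the bony modiolus and osseous spiral lamina, and the tympanic border cells under the basilar membrane. They secrete a matrix of collagens, proteoglycans and the cochlea-enriched proteins cochlin and otoraplin, and they take part in potassium recycling. The mouse cochlea begins to hear at about the time of the earlier samples, and its bone and matrix continue to mature afterwards.

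The summed stromal UMIs ranged from 781839 to 8028711 per library and the median cell from 3594 to 9133 UMIs, with the largest sums at P12. No more than 1 stromal barcode was shared by any pair of libraries. Levels below are in CPM, the UMIs of a gene in the stromal sum of a library, scaled to the same total in every library. The 5 libraries labelled Coch + Tmx are called Tmx-labelled P26 and Tmx-labelled P33 (reps 1, 2 and 3, and 1 and 2), and the library labelled Coch + Tmx P26 rep 3 keeps that wording because of its Atoh1 level. Within the stromal sums, Dcn (decorin) stood at 357 and 573 CPM at P12 and between 948 and 3466 CPM later, but did not pass the test used below. Pdgfra, a mesenchymal receptor, lay between 143 and 280 CPM in all 8 libraries, whereas Col1a1, another gene usually taken as a stromal marker, lay between 0 and 25.4 CPM. RNA of other cells was present: the 8 Schwann and satellite glia markers summed to 6056 CPM in Coch P12 rep 2 against 194 to 1781 CPM in the other 7 libraries, and the 11 macrophage markers to 2407 and 2568 CPM in the Tmx-labelled P33 libraries against 129 to 440 CPM in the other 6. The 7 neutrophil markers summed to 9.47 and 23.7 CPM at P12 and to 61.4 to 204 CPM later, and the 7 erythroid markers to 1201 to 16722 CPM. Emcn, also used as an endothelial marker, lay between 1040.4 and 1793 CPM, while of the other endothelial markers Cdh5 lay between 13.1 and 69.9 CPM, Flt1 between 18.7 and 72.6 CPM, and Kdr, Cldn5, Egfl7 and Esam at or under 19.4 CPM. All animals carried the Atoh1-HA transgene, which tamoxifen switches on, and the Atoh1 count was not split into transgene and endogenous RNA. Atoh1 stood at 12.3 CPM over all kept barcodes of the library labelled Coch + Tmx P26 rep 3. It stood at 90.5 to 524 CPM in the other 4 Coch + Tmx libraries and 17.5 to 23.7 CPM in the 3 untreated ones.

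The genes that chose the cells are given as values only. Col1a2 stood at 1924 and 2059 CPM at P12, at 1183, 1116 and 642 CPM in Tmx-labelled P26, at 656 and 873 CPM in Tmx-labelled P33 and at 379 CPM in Coch P33. Col3a1 stood at 175 and 216 CPM at P12 and between 38.4 and 189 CPM later. Just inside the rule, with exactly 3 summed collagen UMIs, lay 52 and 23 cells of the P12 libraries and 19 to 50 cells of each later library, and just outside it, with 2, lay 42 and 24 barcodes at P12 and 33 to 82 in each later library. Stromal cells made up 60.0% (exact binomial 95% interval 57.3 to 62.6) and 57.4% (54.1 to 60.7) of the kept barcodes at P12 and 12.9% to 36.9% in the later libraries. With 3 summed UMIs of Dcn, Lum and Ogn in place of the collagens, the shares were 18.0% and 22.9% at P12 against 21.5% to 41.2% later. The ages then overlapped, since Coch P12 rep 2 lay above both libraries of Coch + Tmx P33, and the mean share was 8.23 percentage points higher later. The sign of the difference in mean share thus depended on the genes that define the cells. Those genes themselves differed in level with age. Col1a2 was lower in each later library than in either P12 library, Dcn and Ogn were higher, and Col3a1 and Lum overlapped. How far these levels set the shares was not tested. Thinning every barcode to 1500 UMIs before the collagen rule gave 40.1% and 38.9% of the barcodes without Ptprc, Pecam1 or Epcam at P12 and 2.72% to 20.8% later, where the same denominator without thinning gave 81.2% and 82.3% against 24.3% to 52.5%. Intervals cover counting error only.

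**Figure D1:**
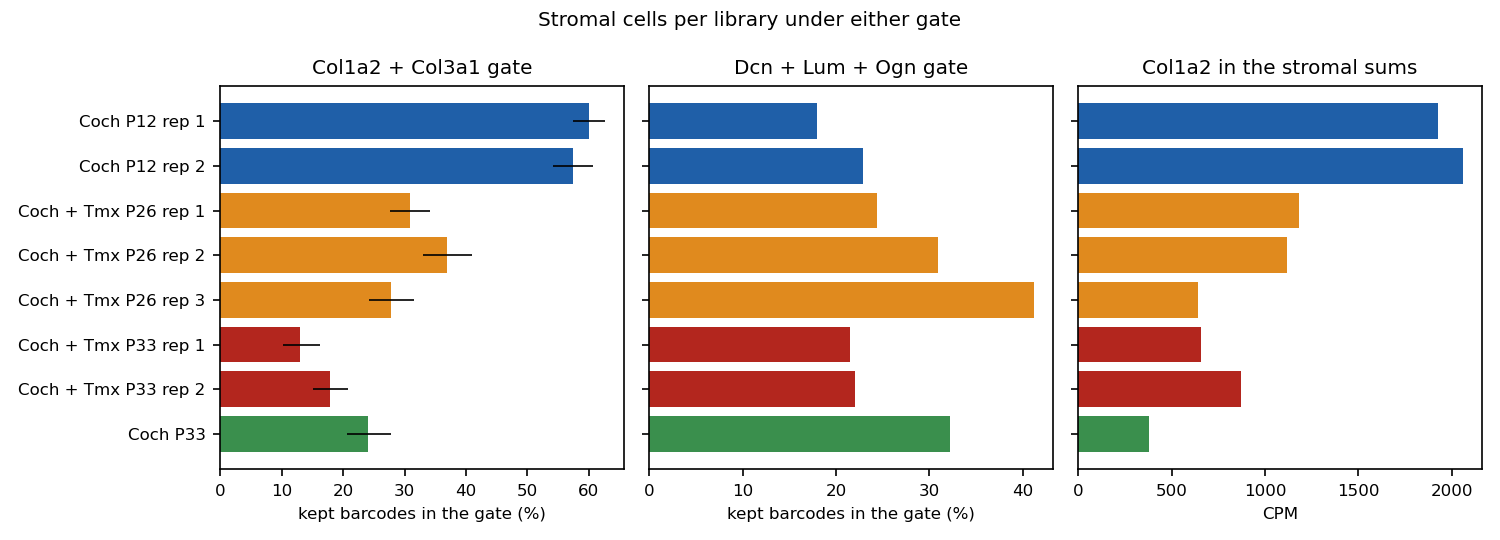
Share of kept barcodes passing the Col1a2 and Col3a1 rule (left, %, bars with exact binomial 95% intervals), the Dcn, Lum and Ogn rule (middle, %) and the Col1a2 level of the stromal sums (right, CPM) in each of the 8 libraries, coloured by group. The P12 libraries are the 2 highest in the left panel (60.0% and 57.4%) and overlap the later ones in the middle panel (18.0% and 22.9%).

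Across all genes, 319 of the 10497 tested differed between the 6 later libraries and the 2 at P12 (3.04%; edgeR quasi-likelihood test with Benjamini-Hochberg adjusted p under 0.05), 196 higher later (1.87%) and 123 lower (1.17%). The median log2 fold change of all genes tested was 0.0061. For 316 of the 319 all 6 later libraries lay on one side of both P12 libraries, as they did for 14.5% of all genes tested. The count rested on the pair of P12 libraries: without Coch P12 rep 1 it was 85 (17 higher and 68 lower, 47 of them among the 319) and without Coch P12 rep 2 it was 250 (111 higher and 139 lower, 142 among the 319). In such a fit the lone P12 library is assumed to vary like the later ones. Without Tmx-labelled P26 rep 2 the count was 201, and it was 214 when the library labelled P26 rep 3 was left out, with 204 among the 319. Fewer cells of a type and less RNA per cell cannot be told apart in a summed count, so shares of cells with a UMI after thinning to 1500 UMIs are given beside several genes.

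**Figure D2:**
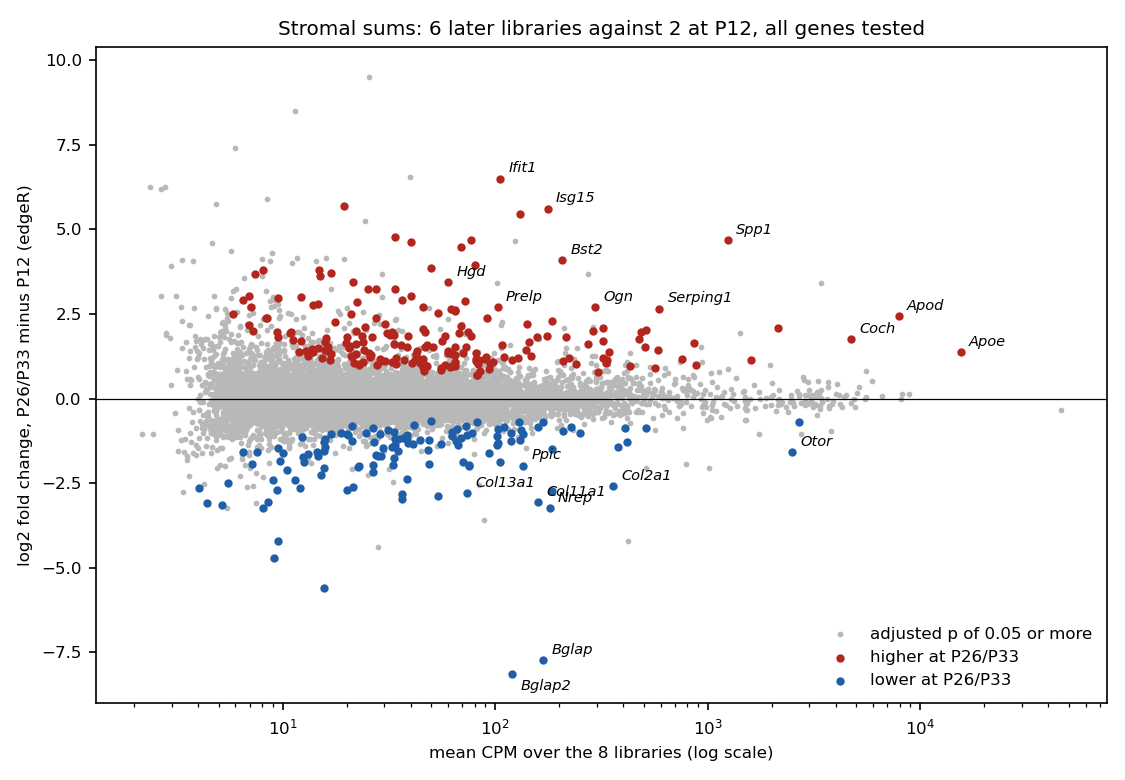
Each point is a gene tested in the stromal sums: mean CPM over the 8 libraries (x axis, log scale) against the edgeR log2 fold change of the 6 later libraries minus the 2 at P12 (y axis), with genes past an adjusted p of 0.05 in red (196, higher) and blue (123, lower). Ifit1, Isg15 and Spp1 stand out above and the osteocalcin genes Bglap and Bglap2 lie lowest.

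The largest falls were in the bone genes Bglap and Bglap2. Both encode osteocalcin, a protein that osteoblasts deposit in mineralising matrix. Bglap (GRCm38 chr3:88383495-88384466) stood at 637 and 683 CPM at P12 (5111 and 4041 UMIs), at 0.660, 0 and 0.706 CPM in Tmx-labelled P26, at 0 and 19.7 CPM in Tmx-labelled P33 and at 0 in Coch P33. Bglap2 (chr3:88377736-88378701) stood at 462 and 485 CPM at P12 and at 0, 0.907, 0, 0, 10.8 and 0 CPM in the same order later. Both were lower in each later library than in either P12 library, by 7.73 ± 0.77 (SE) and 8.13 ± 0.66 on the log2 scale for Bglap and Bglap2 (edgeR adjusted p = 0.000735 and 0.00024). DESeq2 on the same sums gave adjusted p = 0.0367 for Bglap and 0.0543 for Bglap2. The genes are near-identical neighbours, so the split of reads between them is uncertain. After thinning, 5.19% and 6.72% of P12 cells held a Bglap UMI, against 0.781% of Tmx-labelled P33 rep 2 and none of the cells of the other 5 later libraries, so the transcripts lay in a small share of P12 stromal cells. Another osteoblast gene, Ibsp (bone sialoprotein), stood at 2234 and 1339 CPM at P12, at 94.4, 12.7 and 7.06 CPM in Tmx-labelled P26, at 593 and 1982 CPM in Tmx-labelled P33 and at 86.2 CPM in Coch P33, and did not pass the test (edgeR adjusted p = 0.52). The osteoblast markers as a list of 6, which includes Bglap, Bglap2 and Ibsp, summed to 3511 and 2853 CPM at P12 and to 170.1 to 2537 CPM later. Its other members, Sp7, Dmp1 and Phex, overlapped between the ages and did not pass. Dmp1 stood at 113 and 274 CPM at P12 and between 55.8 and 400 CPM later. Phex stood at 56.5 and 50.9 CPM against 21.5 to 91.6 CPM, and Sp7 at 9.22 and 21.1 CPM against 1.41 to 33.5 CPM. With barcodes over 0.5% UMIs of another cell type's markers left out, this list included, neither Bglap nor Bglap2 had a value. With barcodes holding a UMI of any of 10 single markers of endothelium, macrophages, glia, mural cells or epithelium left out, Bglap had a log2 fold change of -5.40 (edgeR adjusted p = 0.00618) and Bglap2 had no value.

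Spp1 encodes osteopontin, a secreted phosphoprotein of bone and of activated or remodelling tissue. It stood at 56.7 and 69.0 CPM at P12, at 4716, 825 and 730.0 CPM in Tmx-labelled P26, at 1389 and 1589 CPM in Tmx-labelled P33 and at 557 CPM in Coch P33. All 6 later libraries lay far above both P12 libraries, and the first P26 library above the rest. The log2 fold change was 4.69 ± 0.86 (edgeR adjusted p = 0.0173), and the share of cells with a UMI at 1500 UMIs was 3.02% and 4.94% at P12 against 24.3% to 64.8% later. Without Coch P12 rep 1 or rep 2 the adjusted p of Spp1 was 0.195 and 0.0714. Over the list of osteogenic and chondrogenic genes, 1 of 15 tested rose (Spp1) and 2 fell (Bglap and Bglap2), with a list median of -0.54 on the log2 scale. Calls thus made up 20% of this list, against 3.04% of all genes.

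Of 25 collagen genes tested apart from the pair that chose the cells, 9 fell and none rose (36.0% of those tested, against 3.04% of all genes; list median -0.90 against 0.0061): Col2a1, Col9a1, Col9a3, Col11a1 and Col11a2, which build the mixed fibrils of cartilage, Col5a2 and Col27a1, which are fibrillar, Col13a1, a transmembrane collagen, and Col15a1 of basement membrane zones. Col2a1 (chr15:97975602-98004724) stood at 858 and 1045 CPM at P12, at 315, 258 and 80.5 CPM in Tmx-labelled P26, at 94.6 and 163 CPM in Tmx-labelled P33 and at 40.9 CPM in Coch P33, the lowest of all. Col11a1 stood at 609 and 329 CPM at P12, at 85.8, 85.3 and 36.0 CPM in Tmx-labelled P26, at 49.9 and 60.1 CPM in Tmx-labelled P33 and at 17.1 CPM in Coch P33. The log2 fold changes were -2.59 ± 0.50 for Col2a1 (edgeR adjusted p = 0.0216) and -3.05 ± 0.39 for Col11a1 (0.00228).

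Col13a1 had 228 and 186 CPM at P12 and 20.5 to 47.3 CPM in the 6 later libraries (log2 -2.79 ± 0.24, edgeR adjusted p = 0.000305). Col9a1 fell by 2.72 ± 0.43, Col9a3 by 2.88 ± 0.51 and Col15a1 by 2.83 ± 0.33 on the log2 scale (edgeR adjusted p = 0.00793, 0.0143 and 0.00147). The share of stromal cells with a Col2a1 UMI at 1500 UMIs was 45.5% and 44.1% at P12 and 5.71% to 29.6% later. The chondrocyte-restricted Matn1 was at 0 in 7 of the 8 libraries and Acan lay between 0 and 15.2 CPM, in a list of 6 chondrocyte markers of which 2, Col2a1 and Col9a1, were lower later. With barcodes over 0.5% UMIs of another cell type's markers left out, chondrocyte and osteoblast lists included, 8 of the 9 collagens passed. Col2a1 and Col9a1 are themselves in that chondrocyte list, so the result for these 2 was set in part by that choice. Without Coch P12 rep 1, 3 of the 9 collagen calls were lost (adjusted p up to 0.334), and without Coch P12 rep 2 also 3 (up to 0.135). Leaving out Tmx-labelled P26 rep 2, the library labelled P26 rep 3 or Tmx-labelled P33 rep 1 cost 1, 1 and 2 calls, at adjusted p up to 0.0682, 0.0683 and 0.072. Among cells chosen by Dcn, Lum and Ogn, 4 of the 9 passed, and none changed sign.

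Enzymes and chaperones that process collagen were mostly not past the test (14.3% of those tested were called, against 3.04% of all genes). Of 28 tested, Plod2, a lysyl hydroxylase, fell from 234 and 147 CPM to between 31.1 and 103 CPM (log2 -1.62 ± 0.28, edgeR adjusted p = 0.013), and Pcolce2 and Kdelr3 fell by 1.31 ± 0.28 and 1.16 ± 0.22 on the log2 scale (0.032 and 0.0203). Pcolce, which enhances the trimming of procollagen, moved the other way: 38.2 and 70.4 CPM at P12, 274, 147 and 176 CPM in Tmx-labelled P26, 216 and 224 CPM in Tmx-labelled P33 and 119.9 CPM in Coch P33 (log2 1.83 ± 0.34, adjusted p = 0.0184). When Coch P12 rep 1 was left out, none of these 4 calls remained (adjusted p up to 0.207), and without Coch P12 rep 2 those of Pcolce2 and Kdelr3 were lost (up to 0.124). Pcolce2 was also lost without Tmx-labelled P26 rep 2, the library labelled P26 rep 3 or Tmx-labelled P33 rep 1 (0.068, 0.0572 and 0.0594). In cells chosen by Dcn, Lum and Ogn, Pcolce2 alone of the 4 passed (others up to 0.226).

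Small leucine-rich proteoglycans, which bind collagen fibrils and set their spacing and thickness, rose where they moved. Of 10 tested, 4 were higher later and none lower (40.0% called, against 3.04% of all genes, list median 1.23): Prelp, Ogn, Bgn and Fmod. Prelp stood at 20.3 CPM in each P12 library, at 99.7, 165 and 156 CPM in Tmx-labelled P26, at 111 and 132 CPM in Tmx-labelled P33 and at 116 CPM in Coch P33 (log2 2.71 ± 0.26, edgeR adjusted p = 0.000556). Ogn, osteoglycin, stood at 38.6 and 76.9 CPM at P12, at 491, 488 and 382 CPM in Tmx-labelled P26, at 278 and 425 CPM in Tmx-labelled P33 and at 187 CPM in Coch P33 (log2 2.70 ± 0.42, adjusted p = 0.00783). Bgn, biglycan, went from 70.6 and 118 CPM to between 287 and 491 CPM (log2 2.09 ± 0.28, adjusted p = 0.00288), and the share of cells with a Bgn UMI at 1500 UMIs from 10.0% and 18.6% to between 40.7% and 58.5%. Fmod, fibromodulin, had a mean of only 1.62 CPM at P12 and lost its call (adjusted p from 0.0603 to 0.334) when Coch P12 rep 1 or any of the 5 Coch + Tmx libraries was left out. Ogn lost its call without Coch P12 rep 1 (0.0925). Prelp and Bgn kept theirs without any 1 library. In cells chosen by Dcn, Lum and Ogn, where Ogn is itself part of the rule, only Prelp of the 4 passed, and Fmod, Ogn and Bgn did not (adjusted p up to 0.208).

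Elastic fibre and other glycoprotein genes moved both ways. Of 33 tested, 4 rose (Smoc1, Mfap5, Cyr61 and Efemp1) and 3 fell (Wisp1, Fbn2 and Mfap2), with a list median of 0.41. The called share was 21.2%, against 3.04% of all genes. Cyr61, a matricellular protein, rose from 97.9 and 237 CPM to between 312 and 822 CPM (log2 1.77 ± 0.41, edgeR adjusted p = 0.0424) and Smoc1, a calcium-binding protein of basement membranes, from 13.6 and 30.3 CPM to between 59.7 and 177 CPM (log2 2.40 ± 0.48, adjusted p = 0.0245). Fbn2, a fibrillin typical of developing tissue, fell from 76.5 and 72.2 CPM to between 14.4 and 43.6 CPM (log2 -1.33 ± 0.29, adjusted p = 0.0363), and Mfap2, which binds fibrillin, from 349 and 316 CPM to between 146 and 201 CPM (log2 -0.96 ± 0.15, adjusted p = 0.00849). Mfap2 and Mfap5 are both microfibril-associated proteins, and Mfap5 went the other way, from 13.7 and 9.47 CPM to between 17.9 and 58.5 CPM (log2 1.88 ± 0.39, adjusted p = 0.0298). With Coch P12 rep 1 left out, none of the 7 passed (adjusted p up to 0.346), and without Coch P12 rep 2 Mfap5, Wisp1 and Fbn2 did not (up to 0.118). Each of the 5 Coch + Tmx libraries, left out alone, cost 1 or 2 of the calls of Cyr61, Fbn2 and Mfap5 (adjusted p up to 0.0786). In cells chosen by Dcn, Lum and Ogn, Efemp1 and Mfap2 alone passed (the other 5 up to 0.287).

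Among 15 proteases and inhibitors of the matrix, Mmp11, a stromelysin, fell from 277 and 188 CPM to between 31.5 and 96.2 CPM (log2 -1.86 ± 0.32, edgeR adjusted p = 0.0124) and Htra1, a secreted serine protease, from 140.0 and 107 CPM to between 39.4 and 72.9 CPM (log2 -1.06 ± 0.25, 0.0427). Timp3, an inhibitor bound to the matrix, rose from 587 and 439 CPM to between 676 and 1364 CPM (0.0429). These 3 calls were 20% of the 15 tested, against 3.04% of all genes. In the fit lacking Coch P12 rep 1, none of the 3 passed (up to 0.354), and the calls of Timp3 and Htra1 were also lost without Coch P12 rep 2, Tmx-labelled P26 rep 1 or rep 2, or either Tmx-labelled P33 library (up to 0.175), and that of Timp3 without Coch P33 (0.0508). In cells chosen by Dcn, Lum and Ogn none of the 3 passed (0.403 to 0.76), with Mmp11 at -0.30 on the log2 scale. The 12 genes with the largest falls also held Nrep, a small intracellular protein first described in regenerating nerve, Ppic, cyclophilin C of the secretory pathway, and Fabp5, a fatty acid carrier. Nrep stood at 614 and 488 CPM at P12 and at 41.6 to 71.7 CPM in all 6 later libraries (log2 -3.23 ± 0.21, adjusted p = 5.45e-05), in 50.1% and 43.3% of P12 cells against 4.62% to 9.05% later at 1500 UMIs. Ppic was as tight, with 322 and 300.2 CPM against 63.5 to 81.9 CPM (log2 -1.98 ± 0.14, 0.000109), and Fabp5 with 158 and 186 CPM against 26.8 to 51.9 CPM (log2 -1.96 ± 0.20, 0.000784).

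**Figure D3:**
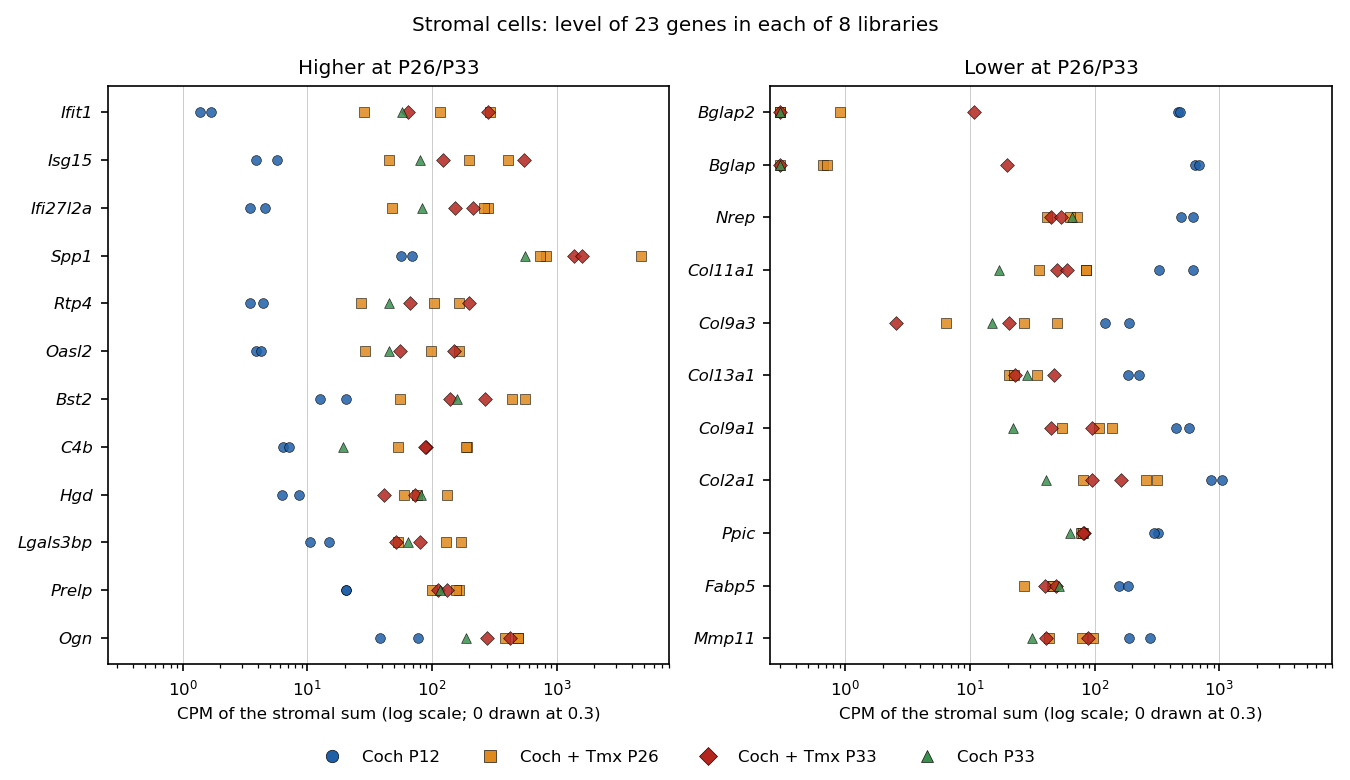
CPM of the stromal sums (x axis, log scale, 0 drawn at 0.3) of the 12 genes with the largest rises (left) and 11 of those with the largest falls (right) among those with a mean of at least 50 CPM, 1 point per library, shaped and coloured by group. These 23 genes were chosen to have no overlap between later and P12 libraries. Coch P33, counted as later, therefore lies on the later side of each by that rule.

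The largest rises were in genes that interferon induces. Interferons are secreted signals of antiviral defence; through STAT and IRF transcription factors they switch on genes whose promoters hold the interferon-stimulated response element, and part of this program is the class I antigen presentation machinery. Of 36 genes of the MHC class I and interferon list tested, 17 rose and none fell (47.2% called, against 3.04% of all genes). The list median was 2.06, against 0.0061 over all genes tested, and 36 of 36 had a positive log2 fold change. Ifit1, which binds viral RNA, stood at 1.37 and 1.69 CPM at P12 (11 and 10 UMIs), at 28.4, 295 and 116 CPM in Tmx-labelled P26, at 64.0 and 279.6 CPM in Tmx-labelled P33 and at 57.4 CPM in Coch P33. Isg15, a ubiquitin-like modifier, stood at 3.86 and 5.75 CPM at P12, at 44.9, 410.1 and 197 CPM in Tmx-labelled P26, at 123 and 547 CPM in Tmx-labelled P33 and at 79.5 CPM in Coch P33. The later libraries all lay above both P12 libraries and also differed widely among themselves, with Tmx-labelled P26 rep 1 the lowest for each. The log2 fold changes were 6.51 ± 1.10 for Ifit1 (edgeR adjusted p = 0.0108) and 5.62 ± 1.06 for Isg15 (0.0189).

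The promoter stretches of 4 of these genes are shown because they carry the letters of the response element: GAAA, a pair of any bases and GAAA again, or TTTC in the same arrangement, with overlapping matches counted, searched on both strands in RefSeq windows of 300 bases around the start (GRCm38.p6). The element is in capitals, and for genes with several the one nearest the start is given, read along the gene's strand.
Ifit1, chr19:34640794-34640823, plus strand, 85 bases before the start: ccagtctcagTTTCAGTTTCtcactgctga
Isg15, chr4:156200865-156200894, minus strand, 66 bases before the start: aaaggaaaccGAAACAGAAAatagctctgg
Bst2, chr8:71537577-71537606, minus strand, 124 bases before the start: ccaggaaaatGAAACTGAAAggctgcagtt
B2m, chr2:122147538-122147567, plus strand, 139 bases before the start: ataagaacatGAAACTGAAAatgggaaagt
Of the 17 genes that rose, 14 matched a window, and 5 of these (35.7%) held the element, the fifth being Ifitm3, against 3.72% of the 8064 tested genes with a window and 3.44% of all 32851 windows. The match is a description of these letters, not of binding.

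Ifi27l2a, an interferon-inducible membrane protein, rose from 3.49 and 4.57 CPM to between 47.5 and 279 CPM (log2 5.45 ± 0.77, edgeR adjusted p = 0.0042), Rtp4, a receptor transporter, from 3.49 and 4.40 CPM to between 27.1 and 198 CPM (log2 4.69 ± 0.79, 0.0108), Oasl2, of the oligoadenylate synthetase family, from 3.86 and 4.23 CPM to between 29.0 and 165 CPM (log2 4.50 ± 0.72, 0.00845), and Bst2, tetherin, from 12.6 and 20.3 CPM to between 55.5 and 561 CPM (log2 4.08 ± 0.86, 0.0306). At 1500 UMIs the share of cells with a Bst2 UMI was 2.41% and 2.77% at P12 and 7.69% to 37.8% later. The antigen presentation members, with smaller changes and higher levels, included B2m, the light chain of class I (338 CPM mean at P12, 1035 CPM later; log2 1.65, adjusted p = 0.0126), H2-D1 (157 and 628 CPM; 2.03, 0.00163) and H2-K1 (60.8 and 214 CPM; 1.84, 0.00241), with the immunoproteasome subunits Psmb8 and Psmb9, the peptide transporter Tap2 and its partner Tapbp, and the factors Irf7 and Irf9. Values of H2 and of the Ifitm and Ifi27 families are uncertain where near-identical copies share reads.

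Leaving out Coch P12 rep 1, 14 of the 17 calls were lost (edgeR adjusted p up to 0.444), and without Coch P12 rep 2, 11 (up to 0.158). H2-D1, H2-K1 and Ifitm3 kept theirs in both fits. Leaving out Tmx-labelled P26 rep 2, the library labelled P26 rep 3, Tmx-labelled P33 rep 1, Tmx-labelled P33 rep 2 or Coch P33 cost 5, 4, 2, 2 and 1 calls (up to 0.0804). The summed macrophage markers were highest in Tmx-labelled P33 and lowest of all 8 libraries in Coch P33 (129 CPM). The neutrophil markers were highest in Coch P33 (204 CPM), where Ifit1 was 57.4 CPM. With barcodes over 0.5% marker UMIs of another cell type left out all 17 passed (edgeR adjusted p up to 0.0357). The part of RNA from other cells in these rises was not tested. With the cells chosen by Dcn, Lum and Ogn instead, 6 of the 17 passed (up to 0.179) and none changed sign.

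Complement is the serum cascade of innate defence, parts of which stromal cells also make. Of 11 genes tested, 5 were higher and none lower, and 6 did not pass (45.5% called, against 3.04% of all genes, list median 0.97). The 5 were C4b, C2, C1ra and C1s1 of the classical pathway and Serping1, its inhibitor. Serping1 stood at 108 and 131 CPM at P12, at 1029, 806 and 738 CPM in Tmx-labelled P26, at 609 and 828 CPM in Tmx-labelled P33 and at 479 CPM in Coch P33 (log2 2.66 ± 0.29, edgeR adjusted p = 0.00102), and was detected at 1500 UMIs in 16.3% and 17.4% of P12 cells against 50.7% to 70.4% later. C4b stood at 6.35 and 7.10 CPM at P12, at 191, 187 and 53.7 CPM in Tmx-labelled P26, at 89.5 and 88.6 CPM in Tmx-labelled P33 and at 19.3 CPM in Coch P33 (log2 3.95 ± 0.75, 0.0196). C1ra rose from 8.97 and 11.7 CPM to between 33.3 and 56.3 CPM (log2 1.98 ± 0.25, 0.00218). When Coch P12 rep 1 was left out, the calls of C4b, C2 and C1s1 were lost (up to 0.216), and without Coch P12 rep 2 those of C4b and C1s1 (up to 0.0824). Those of C4b and C1s1 were also lost in cells chosen by Dcn, Lum and Ogn (up to 0.126).

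Of 19 chemokines and cytokines tested, 4 rose and none fell: Cxcl12, a chemokine of stromal niches, Csf1, the macrophage growth factor, Ccl2 and the receptor Il6ra. The called share was 21.1%, against 3.04% of all genes. Cxcl12 stood at 67.6 and 109.6 CPM at P12, at 477, 429 and 324 CPM in Tmx-labelled P26, at 257 and 461 CPM in Tmx-labelled P33 and at 184 CPM in Coch P33 (log2 2.01 ± 0.37, edgeR adjusted p = 0.0182). Csf1 was low throughout, 7.72 and 9.47 CPM against 13.3 to 34.5 CPM (log2 1.49 ± 0.34, 0.0394). With Coch P12 rep 1 left out, none of the 4 passed (up to 0.344), without Coch P12 rep 2 Il6ra and Csf1 did not (up to 0.0839), and without any 1 of the 5 Coch + Tmx libraries Ccl2 and Csf1 did not (up to 0.0832). None of the 4 passed in cells chosen by Dcn, Lum and Ogn (0.14 to 0.29).

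Of the genes that mark cochlear mesenchyme and fibrocytes, 3 of 32 tested rose and 1 fell (12.5% called, against 3.04% of all genes, list median 0.64). Coch, which encodes cochlin, an abundant secreted protein of the spiral limbus and ligament, stood at 1841 and 1619 CPM at P12, at 10217, 5187 and 4323 CPM in Tmx-labelled P26, at 5435 and 6156 CPM in Tmx-labelled P33 and at 3172 CPM in the library Coch P33 (log2 1.75 ± 0.35, edgeR adjusted p = 0.0236). Otor, otoraplin, went the other way, from 6177 and 3971 CPM at P12 to 1201, 1987 and 1031 CPM in Tmx-labelled P26, 1728 and 2333 CPM in Tmx-labelled P33 and 1568 CPM in Coch P33 (log2 -1.59 ± 0.26, 0.00938). Dpep1, a membrane dipeptidase, rose from 1.12 and 8.46 CPM to between 14.9 and 84.5 CPM (log2 3.24 ± 0.78, 0.0493) and Celsr2, a cadherin of planar polarity, from 41.6 and 51.1 CPM to between 67.8 and 146 CPM (log2 1.18 ± 0.25, 0.032). None of the 4 passed without Coch P12 rep 1 (up to 0.342), and Coch and Celsr2 did not without Coch P12 rep 2 (up to 0.0949). Dpep1 was lost without any 1 of the 5 Coch + Tmx libraries and Celsr2 without Tmx-labelled P26 rep 2 or either Tmx-labelled P33 library (up to 0.085). In cells chosen by Dcn, Lum and Ogn, Coch passed and Dpep1, Celsr2 and Otor did not (up to 0.395).

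Lipid carriers were among the most abundant transcripts that rose. Apod, apolipoprotein D, stood at 989 and 2695 CPM at P12, at 10997, 8198 and 11798 CPM in Tmx-labelled P26, at 7115 and 9885 CPM in Tmx-labelled P33 and at 11666 CPM in Coch P33 (log2 2.44 ± 0.41, edgeR adjusted p = 0.0105), and Apoe at 6848 and 7497 CPM at P12 and between 13649 and 23836 CPM later (log2 1.38 ± 0.21, 0.00752). At 1500 UMIs an Apod UMI was found in 45.6% and 64.8% of P12 cells and 93.9% to 98.8% of later ones. Of the 25 lipid genes tested, 3 rose (Apod, Apoe and the phospholipase Pla1a) and 1 fell (Fabp5, above), and without Coch P12 rep 1 Apoe and Pla1a were lost (up to 0.1). Of 30 genes of oxidant defence and xenobiotic handling, 4 rose and none fell. The called share was 16.0% for the lipid list and 13.3% for this list, against 3.04% of all genes. Gstm2, a glutathione transferase, stood at 10.3 and 15.2 CPM at P12 and between 52.6 and 90.6 CPM later (log2 2.64 ± 0.28, 0.000989), Gstm1 at 204 and 226 CPM and between 456 and 694 CPM (log2 1.52 ± 0.24, 0.00783), and Gstt1 at 56.0 CPM in each P12 library and between 109.6 and 141 CPM (log2 1.22 ± 0.19, 0.00752). The fourth was Cyp1b1, lost without Coch P12 rep 2, Tmx-labelled P26 rep 1 or rep 2, the library labelled P26 rep 3, or Tmx-labelled P33 rep 1 (0.0531 to 0.197), and without Coch P12 rep 1 Gstm1, Gstt1 and Cyp1b1 were lost (up to 0.135). Hgd, an enzyme of tyrosine breakdown outside these lists, rose from 8.59 and 6.26 CPM to between 41.4 and 133 CPM (log2 3.43 ± 0.44, 0.00241), and Lgals3bp, a secreted galectin ligand, from 10.6 and 15.1 CPM to between 51.2 and 171 CPM (log2 2.88 ± 0.53, 0.0165). Hgd kept its call without any 1 library, and Lgals3bp lost its without either P12 library (up to 0.204). In cells chosen by Dcn, Lum and Ogn, Pla1a, Fabp5, Gstt1 and Cyp1b1 did not pass (up to 0.647).

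Signalling lists held few calls. The called share was 11.1% for BMP and TGF-beta genes and 7.69% for glucocorticoid and circadian genes, against 3.04% of all genes. For retinoid and thyroid hormone genes it was 5.26%, a single gene and near the share of all genes. None of 29 WNT genes, 12 genes of the IGF axis, 19 genes of actin, muscle and adhesion or 6 sex-linked genes passed. Of 27 BMP and TGF-beta genes, Bmp2, a secreted ligand, rose from 9.47 and 8.96 CPM to between 18.5 and 40.2 CPM (log2 1.68 ± 0.34, edgeR adjusted p = 0.0255), Tgfbr3, a coreceptor, from 55.8 and 38.7 CPM to between 67.0 and 122 CPM (log2 1.03 ± 0.23, 0.0376), and Id4, a target that blocks helix-loop-helix factors, fell from 104 and 92.8 CPM to between 11.2 and 30.8 CPM (log2 -2.38 ± 0.26, 0.00115). Of 19 retinoid and thyroid hormone genes, Dhrs3, which reduces retinaldehyde, rose from 29.5 and 67.1 CPM to between 146 and 329.7 CPM (log2 2.29 ± 0.46, 0.0236). Of 26 glucocorticoid and circadian genes, Nr1d1, a repressor of the clock whose level cycles with the time of day, rose from 11.3 and 16.2 CPM to between 40.2 and 115 CPM (log2 2.59 ± 0.39, 0.00689) and Sult1a1, a sulfotransferase, from 29.1 and 37.0 CPM to between 62.7 and 123 CPM (log2 1.35 ± 0.25, 0.0177). The time of dissection was not among the labels. Bmp2 and Tgfbr3 were lost without either P12 library (up to 0.22), Tgfbr3 also without Tmx-labelled P26 rep 2, the library labelled P26 rep 3 or Tmx-labelled P33 rep 1 (up to 0.0696), and Dhrs3, Nr1d1 and Sult1a1 without Coch P12 rep 1 (up to 0.24). Of these 6 genes, Nr1d1 alone passed in cells chosen by Dcn, Lum and Ogn (the others up to 0.637).

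Of genes linked to growth, 11.1% of the cell division list and 12.5% of the imprinted list were called, against 3.04% of all genes. The immediate early list had 14.3% called. The patterning factor list had 5.41%, near the share of all genes. Of 18 cell division genes tested, Cenpa, a centromeric histone, and Ezh2, a histone methyltransferase, fell (means of 37.3 and 21.4 CPM at P12, 7.70 and 9.36 CPM later) and none rose. Of 16 imprinted growth genes, H19, a fetal non-coding RNA, fell from a mean of 32.7 CPM to 1.20 CPM (log2 -4.71, edgeR adjusted p = 0.000408) and Impact rose from 37.2 and 32.0 CPM to between 53.2 and 72.9 CPM (log2 0.89 ± 0.19, 0.0306). Of 37 patterning transcription factors, Sox4, a factor of immature cells, fell from 198 and 218 CPM to between 65.2 and 141 CPM (log2 -0.94 ± 0.22, 0.0428) and Klf15, a glucocorticoid-induced factor, rose from 14.4 and 15.2 CPM to between 35.3 and 106 CPM (log2 1.97 ± 0.35, 0.0135). Of 28 immediate early and dissociation genes, Hspa1a and Junb rose and Klf2 and Dnaja1 fell. Hspa1a, a heat shock chaperone, stood at 13.5 and 13.7 CPM at P12 and between 53.6 and 125 CPM later (log2 2.62 ± 0.41, 0.00823). In the fit lacking Coch P12 rep 1, Ezh2, Impact, Sox4, Klf15 and all 4 of the last group were lost (up to 0.456), and without Coch P12 rep 2 Ezh2, Impact, Sox4, Klf15, Junb, Klf2 and Dnaja1 (up to 0.174). Ezh2, Impact, Sox4, Junb, Klf2 and Dnaja1 were also lost without Tmx-labelled P26 rep 2 and without Tmx-labelled P33 rep 1. The library labelled P26 rep 3 decided Ezh2, Impact, Sox4, Klf2 and Dnaja1 in the same way, Tmx-labelled P26 rep 1 decided Sox4 and Klf2, Tmx-labelled P33 rep 2 decided Ezh2 and Junb, and Coch P33 decided Ezh2 and Klf2 (adjusted p up to 0.0817 over these fits). Of these 10 genes, H19 and Hspa1a alone passed in cells chosen by Dcn, Lum and Ogn (the others up to 0.684).

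**Figure D4:**
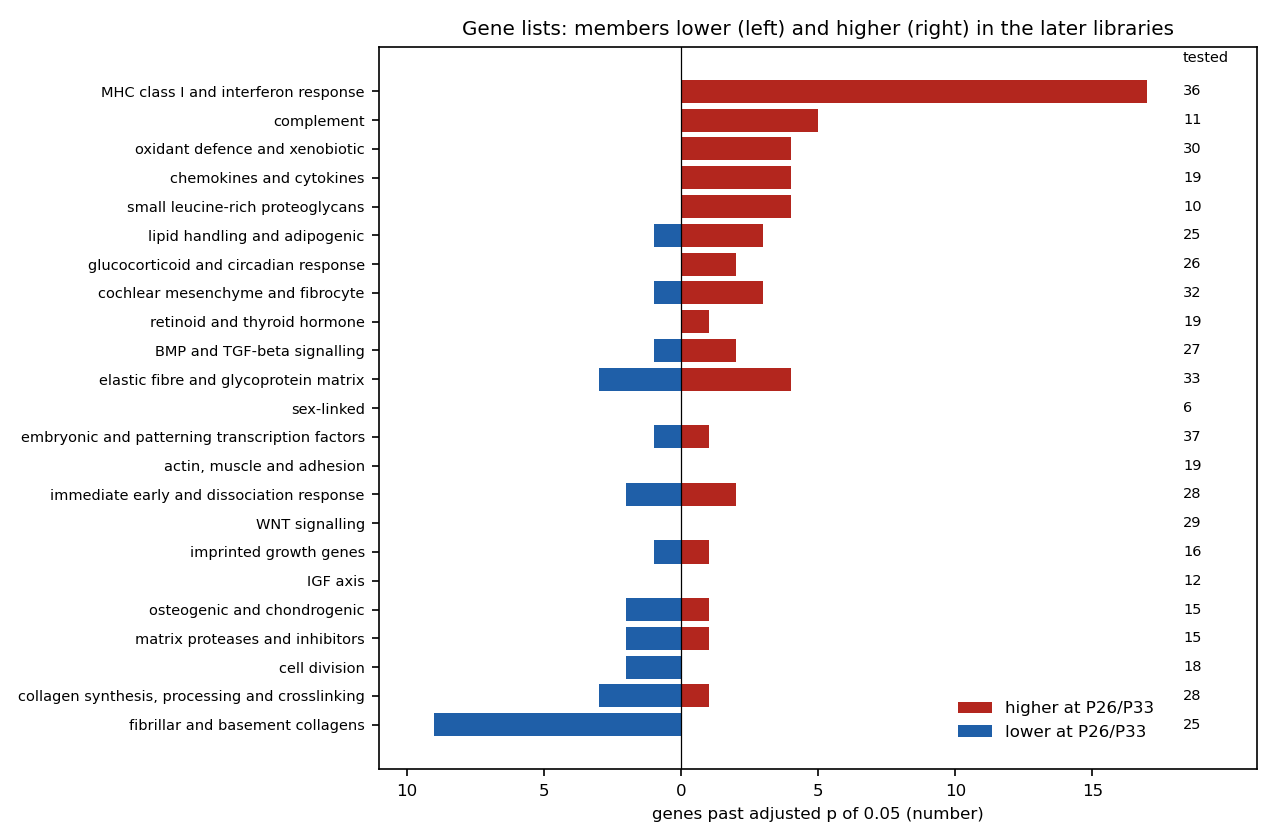
Number of genes of each of 23 lists past an adjusted p of 0.05 in the stromal sums, lower in the later libraries to the left (blue) and higher to the right (red), with the number tested at the right edge. The longest bars are the 17 higher genes of the MHC class I and interferon list and the 9 lower collagens. Of all genes tested, 3.04% were past the threshold.

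The stromal cells were not 1 uniform population, and the makeup by marker differed with age. At 1500 UMIs, a UMI of Fst, Inmt or Dpep1 was found in 9.77% and 16.6% of P12 cells and 26.4% to 51.0% of later cells, and a UMI of Otor or Rarres1 in 77.1% and 76.3% against 34.8% to 61.5%. Emilin2 was detected in 77.9% and 72.1% against 42.9% to 67.6%, whereas Aldh1a2 or Ccl11 (17.0% and 24.7% against 18.2% to 45.1%) and Notum or Npy (31.0% and 18.0% against 6.10% to 21.5%) overlapped between ages. The comparison was repeated within cells holding, before thinning, a UMI of each of these 5 marker sets. Of the 829 and 506 P12 cells, the Emilin2 set held 757 and 486. The Otor or Rarres1 set held 745 and 492, so on the P12 side both sets are close to all stromal cells. The count of genes past the threshold was 337 in Emilin2 cells, 308 in Otor or Rarres1 cells, 342 in Notum or Npy cells, 218 in Aldh1a2 or Ccl11 cells and 184 in Fst, Inmt or Dpep1 cells. Within the 5 sets Ifit1 rose by 6.43 to 8.13, Spp1 by 4.41 to 4.80, Serping1 by 2.34 to 2.67 and Prelp by 2.24 to 2.89 on the log2 scale, and Nrep fell by 3.33 to 3.18, Col13a1 by 2.72 to 2.56 and Ppic by 2.07 to 1.87, each past the threshold in 5 of 5 sets. Not all named genes did so. Of the 64 named, 61 passed in Emilin2 cells, 61 in Otor or Rarres1 cells, 49 in Aldh1a2 or Ccl11 cells and 50 in Fst, Inmt or Dpep1 cells. In Notum or Npy cells 56 of the 63 fitted passed. Mfap5 and Csf1, for example, passed in 2 of 5 sets. The sets overlap in their cells and share libraries, so they are not independent of each other. The 64 genes were chosen because they passed in all stromal cells, and Otor and Dpep1 among them also define sets. How far the makeup of the cells set the age differences was not tested.

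The same libraries hold barcodes of other cell types, which served as a comparison: barcodes with no UMI of the collagens and at least 1 UMI of Ptprc, Pecam1 or Epcam. In their sums, 49 of 11864 genes differed between the later libraries and P12 (0.413%), 11 higher and 38 lower. The difference between the 2 age effects, tested as an interaction with the library as a term, passed for 71 of 12823 genes (0.554%), 54 of them with the more positive change in stromal cells. Among the 24 genes with the largest changes it passed for Spp1, which rose by 4.69 in stromal cells and stood at -0.62 in the other barcodes (difference 5.32 ± 0.85, edgeR adjusted p = 0.0198), Ogn (3.30 ± 0.61, 0.0365), Bst2 (3.23 ± 0.57, 0.0317), Isg15 (2.68 ± 0.46, 0.0264) and Lgals3bp (1.83 ± 0.27, 0.0135). It did not pass for Ifit1 (6.51 in stromal cells and 2.64 in the others, difference 3.55 ± 1.10, adjusted p = 0.176), nor for any collagen of the 12 largest falls. Col2a1 fell by 4.60 and Col9a1 by 3.69 in the other barcodes, where both passed on their own (edgeR adjusted p = 0.000897 and 0.00907). At 1500 UMIs a Col2a1 UMI was found in a mean of 16.7% of these other barcodes at P12 and in 0% to 1.86% later.

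**Figure D5:**
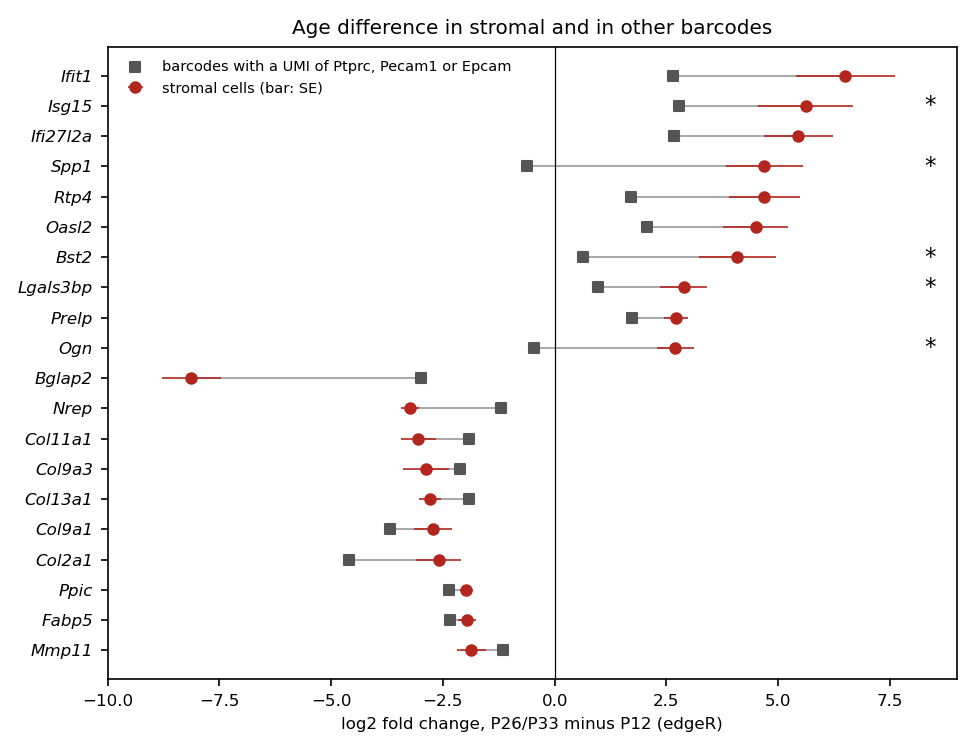
Log2 fold change of the later libraries minus P12 (x axis) in stromal cells (red points, bars for SE) and in barcodes with a UMI of Ptprc, Pecam1 or Epcam (grey squares), for the genes drawn by library above that were tested in both; an asterisk marks an interaction past an adjusted p of 0.05. Spp1 and Ogn lie on opposite sides of 0 in the 2 kinds of barcode, but neither passed in the barcodes with those markers (edgeR adjusted p = 0.755 and 0.697).

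Both ages labelled as given tamoxifen were also compared, Coch + Tmx P33 against Coch + Tmx P26. The latter includes the library labelled P26 rep 3, whose Atoh1 level lay below that of the untreated libraries, and without it 10 genes passed, 7 of them among the 10 below. Of 11283 genes tested, 10 passed (0.0886%; 643 at an unadjusted p under 0.05), all higher at P33. Lyz2, lysozyme of myeloid cells, stood at 99.0, 39.0 and 48.7 CPM in Tmx-labelled P26 and at 725 and 1203 CPM in Tmx-labelled P33 (log2 3.95 ± 0.38, edgeR adjusted p = 0.00764). Tyrobp, C1qc and Csf1r rose by 2.63, 2.55 and 2.50, and C1qa, Fcer1g, Ms4a7 and Trem2 were also among the 10: these 8 are genes of macrophages. The summed macrophage markers were 318, 249 and 440 CPM in Tmx-labelled P26 and 2407 and 2568 CPM in Tmx-labelled P33, with Ptprc at 0 by the rule. With marker-rich barcodes left out no gene passed (edgeR, 532 at an unadjusted p under 0.05, and Lyz2 at 1.02 with adjusted p = 0.95). The markers that chose those barcodes include Lyz2, Tyrobp, C1qa, C1qc, Csf1r and Fcer1g, so the loss of these calls was set in part by that choice. The source of the difference was not tested. DESeq2 called 39 genes with all cells. The remaining pair were Ifitm5 and Sgms2, both known from bone-forming cells. Sgms2, a sphingomyelin synthase, stood at 5.28, 5.44 and 2.12 CPM in Tmx-labelled P26 and at 39.7 and 62.0 CPM in Tmx-labelled P33, against 46.3 and 43.5 CPM at P12 and 4.42 CPM in Coch P33 (log2 3.59 ± 0.37, adjusted p = 0.00797). No gene passed without Tmx-labelled P26 rep 2 (546 at an unadjusted p under 0.05) or without Tmx-labelled P33 rep 2 (475), 3 passed without Tmx-labelled P33 rep 1, and 25 without either P12 library.

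The number of genes detected per stromal cell at 1500 UMIs did not separate the ages: the medians were 814 and 843 at P12 and 792.5 to 848 later, a difference of -3.92 between the means (two-sided exact permutation test over libraries, p = 0.964, where the smallest p this design can give is 0.0357).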

How the data were processed

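Droplet single-cell RNA-seq (10x 3′ chemistry, which counts the 3′ ends of transcripts by UMI) of dissociated organ of Corti gave 8 libraries. The deposited values are whole-number UMI counts per gene and barcode, made by the authors with Cell Ranger on mm10, per the labels; the Cell Ranger version is not given in the sources used here. The authors' later removal of cells by size and cycle phase is not part of the matrices. The HA, tdTomato and GFP transgenes were not analysed here. No molecule was normalized before deposit, and 27998 genes were in each matrix.

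Barcodes were kept at 500 or more genes and under 25% mitochondrial UMIs, chosen as stromal by the rule in the report, and their counts summed per library. Sums were compared with edgeR 4.0.16 (R 4.3.3, TMM scaling, its filter on low counts, quasi-likelihood test, Benjamini-Hochberg adjustment over all genes tested, threshold 0.05), as later libraries against Coch P12, and with group means for P33 against P26. All adjusted p-values are from edgeR unless DESeq2 1.42.0 is named. Each SE is the size of the log2 fold change divided by the square root of the F value of the edgeR test. It was not estimated separately and is approximate. The steps were tested on simulated data. Doublets were not removed in the main sums. Shares of cells with a UMI were taken after thinning each cell to 1500 UMIs, which left out no stromal cell.

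The members, gene lists and tests were chosen with earlier results of these data known. Named genes were the 12 highest and 12 lowest log2 fold changes past the threshold with no overlap between ages and a mean of at least 50 CPM, without the genes of the cell rule and hemoglobins, up to 3 genes per direction of each list at 20 CPM or more, and up to 5 per direction between P33 and P26. One result of this rule is not reported here. Other list members past the threshold (such as B2m, H2-D1, H2-K1, Irf7, Fmod, H19, Cenpa, Ezh2, Ccl2 and Il6ra) and Ibsp were named after their values were seen. Alternatives were DESeq2, other scaling and filters, other rules for cells, subsets, a replicate block and leaving out each library.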

Additional observations from a re-analysis of the deposited data

Results flagged for a closer look

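Among 64 genes examined for a library far from the others of the 6 later ones (gap over range above 0.625, a limit that chance passes in about 1 of 20 groups), 7 stood out. Spp1 was 4716 CPM in Coch + Tmx P26 rep 1, with the nearest library at 1589 CPM. In the same library Sult1a1 was 123 CPM (nearest 83.3 CPM) and Klf15 106 CPM (nearest 57.2 CPM). Bglap was 19.7 CPM and Bglap2 10.8 CPM in Coch + Tmx P33 rep 2, the later library that also had the highest Ibsp, against at most 0.706 and 0.907 CPM in the others. C1ra was 56.3 CPM in Coch + Tmx P26 rep 2 (nearest 40.3 CPM), and Ppic 63.5 CPM in Coch P33 (nearest 77.1 CPM).

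For 9 of the 64 genes the age difference in stromal cells differed from that in barcodes with a UMI of Ptprc, Pecam1 or Epcam (edgeR interaction test). The difference of log2 fold changes was 5.32 ± 0.85 for Spp1 (adjusted p = 0.0198), 3.30 ± 0.61 for Ogn (0.0365), 3.23 ± 0.57 for Bst2 (0.0317), 2.68 ± 0.46 for Isg15 (0.0264), 2.36 ± 0.26 for Apoe (0.00649), 2.04 ± 0.32 for Dhrs3 (0.0198), 1.83 ± 0.27 for Lgals3bp (0.0135) and 1.74 ± 0.29 for Timp3 (0.0243). Id4, which fell in stromal cells, was the exception in sign at -2.45 ± 0.34 (0.0135). The kinds of cell among the other barcodes were not matched between ages, and their part in these differences was not tested.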

How the results depend on the processing

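The count of 319 genes was within 1.5 times of itself under RLE scaling, 4 group means (267), a 10% mitochondrial limit, doublets left out and stricter exclusion of other cell types. It was 569 with DESeq2, 750 with no filter on low counts, 171 with at least 10 collagen UMIs, 74 in Dcn, Lum and Ogn cells (64 of them among the 319), 200 after thinning to 1500 UMIs, 487 with barcodes over 0.5% of another type's markers left out (304 among the 319), 184 in Fst, Inmt or Dpep1 cells, 90 with P33 libraries alone as later and 182 with P26 libraries alone. Leaving out 1 library gave 85 to 370. Higher genes were 61.4% of the calls, 17 of 85 without Coch P12 rep 1, 44.4% without Coch P12 rep 2 and 70.7% with DESeq2. Replicate numbers did not pair the libraries (correlations of deviations -0.0934 to 0.136); the replicate block, which left out Coch P33, gave 392 genes, 251 of them among the 319, and 13 between P33 and P26. None of the 64 named genes changed sign in a fit, and 18 passed without Coch P12 rep 1, 37 without Coch P12 rep 2 and 24 in Dcn, Lum and Ogn cells.

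Between P33 and P26 the 10 genes became 39 with DESeq2, 189 with no filter, 22 with at least 10 collagen UMIs, 3 with stricter exclusion, 5 after thinning and 0 with marker-rich barcodes left out (edgeR, 532 at an unadjusted p under 0.05), and 0 to 25 without 1 library. The difference in the share of stromal cells, -33.6 points, was 8.23 with Dcn, Lum and Ogn and -11.2 with stricter exclusion, where Coch P12 rep 2 kept 35 of 506 cells. The difference in genes per cell, -3.92, lay between -18.4 and 10.6 without 1 library, and was positive without Coch P12 rep 1 (10.6), the library labelled P26 rep 3 (2.5) or Coch P33 (2.3). The P12 side rests on 2 libraries, and Coch + Tmx P33 rep 1 held 65 stromal cells. Leaving out marker-rich barcodes, the comparison with other barcodes and the thinned share were chosen after seeing the data. The causes of these changes were not tested.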
